A study of Mus musculus with 6 samples.

Results

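Prostaglandins are lipid signals that cells make on demand and release to act on themselves and on their neighbours. A phospholipase frees arachidonic acid from membrane lipid, a cyclooxygenase encoded by Ptgs1 or Ptgs2 turns it into prostaglandin H, and a terminal synthase converts that into one product, prostaglandin E by Ptges, Ptges2 or Ptges3 and prostacyclin by Ptgis. Released prostaglandins bind G protein-coupled receptors, and 15-hydroxyprostaglandin dehydrogenase, encoded by Hpgd, begins their breakdown. In fat tissue, prostaglandin E and prostacyclin are known to promote thermogenic gene expression, while prostaglandin F2 alpha is known to hold back adipocyte differentiation.

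The 10 genes described here are Ptgs1, Ptgs2, Ptges, Ptges2, Ptges3, Ptgis, the prostaglandin E receptor genes Ptger2 and Ptger4, the prostaglandin F receptor gene Ptgfr, and Hpgd. They were chosen by symbol, because induction of the uncoupling protein gene Ucp1 by fibroblast growth factors has been linked to prostaglandin synthesis, and all 10 were found among the 26264 gene symbols. RNA-seq had been run on 6 libraries of immortalized brown preadipocytes from wild-type Bl6N mice, 1 library per condition. The cells came from the stromal vascular fraction of interscapular brown adipose tissue and carried the SV40 large T antigen from a retrovirus, which limits them as a model of primary cells. One arm was pretreated with 5.5 nM FGF8 for 48 h and the other was left untreated, and RNA was taken at the end of the pretreatment (day 0) and at days 3 and 9 of the differentiation that followed. The last time point is labelled day 7 and is taken here as day 9 of the study, which counts 2 days of induction and 7 days on differentiation medium. The labels do not say from when they count. Both arms received the same induction mix, which held indomethacin, an inhibitor of cyclooxygenases, along with insulin, triiodothyronine, IBMX, dexamethasone and rosiglitazone. The mix was present over the first 2 days of differentiation, between day 0 and day 3, in both arms. The part of indomethacin and the rest of the mix in the RNA values of the later days was not tested.

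The 6 libraries held 16403254 to 38551551 counts. Values are normalized counts, which are counts divided by a size factor for each library, and levels of different genes are compared only per kilobase of exon. Exon length was the union of all exons annotated for a gene in GENCODE, which need not be the annotation used in counting. Orders and ratios of different genes therefore depend on that length. With 1 library per condition, a fold change between the arms on any day has no replicate check, and its 95% interval (Clopper-Pearson) covers counting error only. A difference of at least 2-fold is counted only where the 2 libraries of a day averaged 20 normalized counts or more. In bulk RNA, fewer cells of a type and less RNA per cell cannot be told apart. Ucp1 was listed at 0 counts in the untreated day 0 library and at 1328 normalized counts in the FGF8 library. It stood at 319.5 and 4287 on day 3 and at 91306 and 99587 on day 9, untreated and FGF8 in that order. The summed counts of 10 brown adipocyte markers were higher at days 3 and 9 (386916 to 756827) than on day 0 (3842 to 8845) in both arms. On day 3 they summed to 386916 untreated and 665999 with FGF8. Most of these 2 sums came from Fabp4 (162482 and 334151) and Lpl (139484 and 193276), and Lpl held 8251 of the 8845 on day 0 untreated.

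The starts of the genes carry the regulatory sequence closest to transcription. The windows below, credited to RefSeq on GRCm38.p6, run from 250 bases before the start to 50 after it, and are shown for Ptgs1 and Ptgs2, which were higher with FGF8 on day 0 and lower later, and for Ptgfr, which was lower throughout. Ptgs2 lies at chr1:150099781-150100080 (plus strand), Ptgs1 at chr2:36230176-36230475 (plus strand) and Ptgfr at chr3:151837479-151837778 (minus strand), each written along its own strand, and capitals mark motif matches.
Ptgs2: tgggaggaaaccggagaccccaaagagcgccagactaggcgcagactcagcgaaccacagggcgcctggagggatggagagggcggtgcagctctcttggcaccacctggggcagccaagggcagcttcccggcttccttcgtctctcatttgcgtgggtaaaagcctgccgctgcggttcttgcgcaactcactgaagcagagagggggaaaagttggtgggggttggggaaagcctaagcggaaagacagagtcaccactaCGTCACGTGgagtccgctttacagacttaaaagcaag
Ptgs1: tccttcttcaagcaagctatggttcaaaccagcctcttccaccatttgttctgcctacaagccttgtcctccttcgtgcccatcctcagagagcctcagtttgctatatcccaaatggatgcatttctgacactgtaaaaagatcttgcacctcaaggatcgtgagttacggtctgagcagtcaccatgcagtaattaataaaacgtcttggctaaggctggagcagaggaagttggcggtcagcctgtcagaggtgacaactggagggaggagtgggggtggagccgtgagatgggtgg
Ptgfr: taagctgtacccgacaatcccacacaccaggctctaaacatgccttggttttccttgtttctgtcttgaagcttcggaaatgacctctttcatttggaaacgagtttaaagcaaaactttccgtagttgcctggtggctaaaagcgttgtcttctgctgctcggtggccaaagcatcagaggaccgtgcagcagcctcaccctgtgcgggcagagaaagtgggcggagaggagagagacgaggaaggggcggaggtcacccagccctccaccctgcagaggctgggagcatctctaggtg
In Ptgs2 the capitals join a short cAMP response element motif, CGTCA, with an overlapping E-box, CACGTG. They lie at positions 14 to 18 and 17 to 22 after the annotated start. The annotated starts were not checked against where transcription begins in these cells. Both strands were searched for 5 motifs, and the shares of all 32817 windows that held them were 20.8% for CGTCA, 7.15% for CACGTG, 7.81% for TGANTCA (AP-1), 14.9% for CCGGAA (ETS) and 13.6% for TATAAA. Of the 9 members with a window (Ptgis had none), Ptgs2 and Ptges3 held CGTCA, Ptgs2 and Ptges2 held CACGTG, and Hpgd held TATAAA, while none held TGANTCA or CCGGAA. The Ptgs1 and Ptgfr windows held none of the 5. A match describes letters in a window and says nothing of a factor bound there.

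Both cyclooxygenase genes were higher in the FGF8 library at the end of pretreatment and lower in it at days 3 and 9. Ptgs1, the cyclooxygenase that most tissues make at a steady level (GRCm39 chromosome 2, 36120438 to 36142287), stood at 2599.9 normalized counts untreated and 4985 with FGF8 on day 0, at 814.5 and 248.5 on day 3, and at 673.6 and 274.8 on day 9. The FGF8 library was thus the higher of the pair before differentiation and the lower of the pair on both later days. The differences were 1.92-fold higher (log2 0.94, 95% interval 0.86 to 1.02) on day 0, 3.28-fold lower (log2 -1.71, -1.90 to -1.52) on day 3 and 2.45-fold lower (log2 -1.29, -1.48 to -1.11) on day 9.

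Ptgs2, the inducible cyclooxygenase that growth factors and inflammatory signals switch on (chromosome 1, 149975194 to 149983978), followed the same course at a lower level. Its normalized counts were 475.9 untreated and 1165.0 with FGF8 on day 0, 106.9 and 35.8 on day 3, and 40.5 and 20.3 on day 9. Day 0 was 2.45-fold higher (log2 1.29, 1.11 to 1.48) and day 3 was 2.99-fold lower (log2 -1.55, -2.11 to -1.06), while day 9 was 1.99-fold lower (log2 -0.96, -1.73 to -0.29) on 57 and 25 raw counts. Exons of the lncRNA Ptgs2os, on the opposite strand, overlap 9.3% of the exon length of Ptgs2, and the strand setting of the counting is not given in the sources used here.

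**Figure D1:**
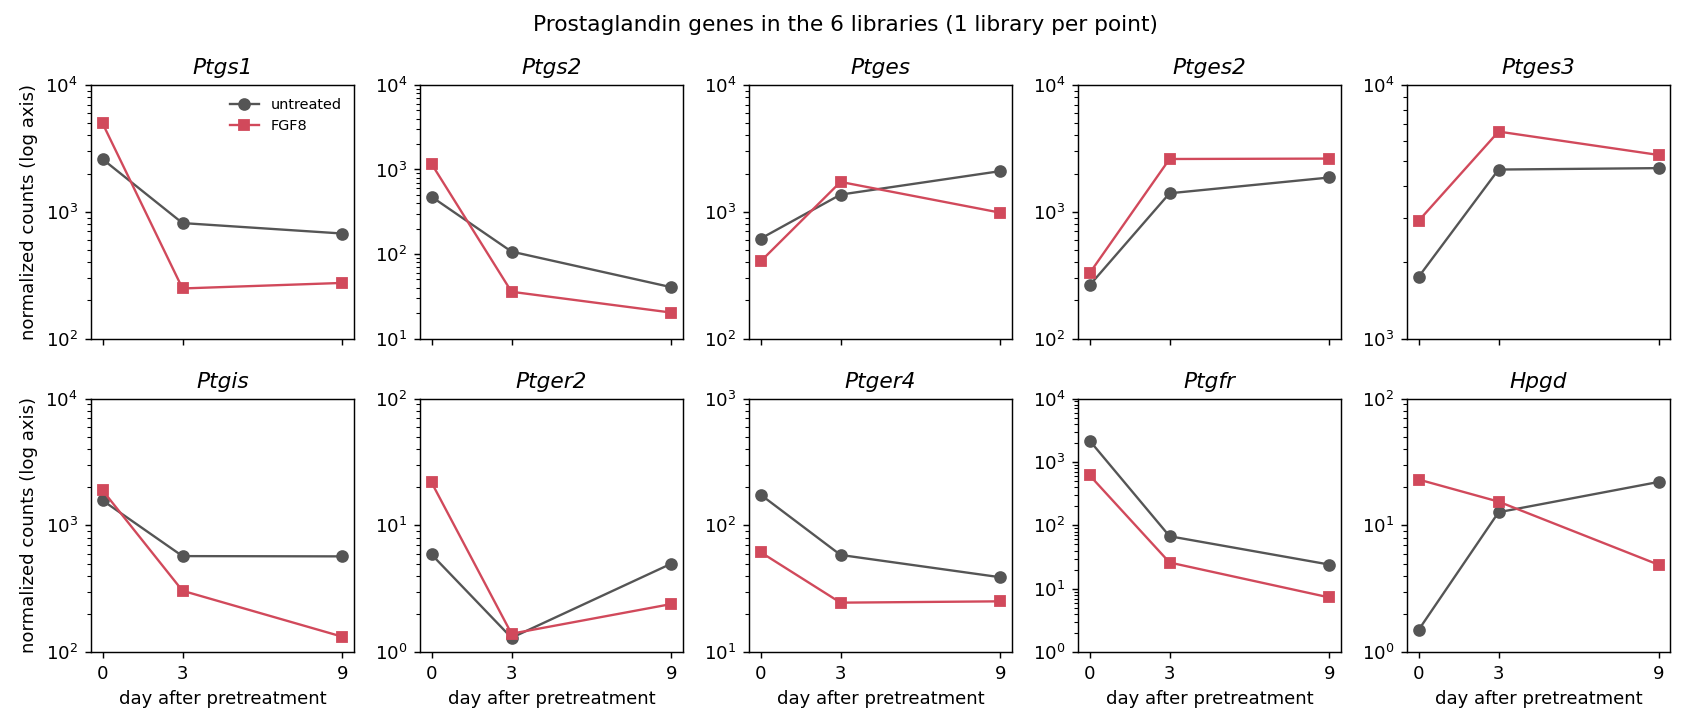
Normalized counts (log axis, a range of its own in each panel) of the 10 genes in the 6 libraries against days after pretreatment, with 1 library per point, grey circles untreated and red squares FGF8. The lines of Ptgs1 and Ptgs2 cross between day 0 and day 3, from 2599.9 and 4985 to 814.5 and 248.5 for Ptgs1, while the FGF8 points of Ptgfr and Ptger4 lie below the untreated points on all 3 days.

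The change of direction was tested across all genes in a model with day, treatment and an extra coefficient for FGF8 on day 0, a test chosen after the data were seen. Days 3 and 9 stand in place of replicates there, and both day 0 libraries are fitted exactly. Its p-values (edgeR quasi-likelihood test, Benjamini-Hochberg over 13868 genes) thus rest on how far the FGF8 effect differed between days 3 and 9. They hold no measure of spread at day 0. The log2 FGF8 effect was greater on day 0 than at days 3 and 9 by 2.45 (SE 0.29, adjusted p = 0.004115) for Ptgs1 and by 2.62 (SE 0.44, adjusted p = 0.0153) for Ptgs2. Under 3 alternatives of tool, scaling and filter the adjusted p ran from 5.687e-07 to 0.02495 for Ptgs1 and from 0.0002223 to 0.04541 for Ptgs2. These were 2 of the 9 members tested, against 3.32% of all genes with a more positive and 2.52% with a more negative effect on day 0, and no member was called more negative (0 at an unadjusted p under 0.05, and 0 with DESeq2).

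Per kilobase, Ptgs1 was the more abundant cyclooxygenase in all 6 libraries. The ratio of Ptgs1 to Ptgs2 was 7.20 untreated and 5.64 with FGF8 on day 0, 10.0 and 9.15 on day 3, and 21.9 and 17.8 on day 9. The summed cyclooxygenase level was 761.8 untreated and 1510 normalized counts per kb with FGF8 on day 0, 230.4 and 70.92 on day 3, and 181.2 and 74.66 on day 9. Ptgs2 made up 12.2% of that sum untreated and 15.1% with FGF8 on day 0, and 4.36% and 5.31% on day 9.

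The prostaglandin E synthases behaved unlike each other. Ptges, the membrane synthase that works with Ptgs2 (chromosome 2, 30779483 to 30820196), had 614.0 normalized counts untreated and 405.8 with FGF8 on day 0, 1366 and 1720 on day 3, and 2093 and 982.9 on day 9. It was lower with FGF8 on day 0 (log2 -0.60, -0.81 to -0.38), higher on day 3 (0.33, 0.23 to 0.44) and 2.13-fold lower on day 9 (log2 -1.09, -1.19 to -0.99). Between days 3 and 9 the untreated value went up and the FGF8 value went down.

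Ptges2, a second membrane-associated synthase (chromosome 2, 32285659 to 32295786), was higher with FGF8 on all 3 days. Its normalized counts were 262.9 and 327.7 on day 0, 1399 and 2606 on day 3, and 1863 and 2626 on day 9, untreated and FGF8 in that order. The log2 differences were 0.32 (0.04 to 0.60), 0.90 (0.80 to 1.00) and 0.49 (0.42 to 0.57), so none reached 2-fold. Ptges3, the cytosolic synthase that is also the heat shock protein co-chaperone p23 (chromosome 10, 127894816 to 127913141), had 1751 and 2913 on day 0, 4639 and 6548 on day 3, and 4699 and 5296 on day 9. Its log2 differences declined from 0.73 (0.63 to 0.84) through 0.50 (0.44 to 0.55) to 0.17 (0.12 to 0.22). A processed pseudogene copy, Ptges3-ps, could share reads with Ptges3.

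Ptgis, the prostacyclin synthase (chromosome 2, 167033725 to 167083018), showed a growing deficit in the FGF8 arm. It stood at 1575 untreated and 1890 with FGF8 on day 0, at 572.7 and 305.3 on day 3, and at 570.0 and 132.5 on day 9. The FGF8 library was 1.20-fold higher on day 0 (log2 0.26, 0.15 to 0.38), 1.88-fold lower on day 3 (log2 -0.91, -1.10 to -0.71) and 4.30-fold lower on day 9 (log2 -2.10, -2.36 to -1.86). The log2 effect on day 0 exceeded that at days 3 and 9 by 1.76 (adjusted p = 0.06053 with edgeR), and the call was made with DESeq2 (adjusted p = 0.02438) and without the filter on low counts (0.002442) but not with DESeq2 size factors in edgeR (0.154). Per kilobase, the ratio of Ptges to Ptgis was 0.317 untreated and 0.175 with FGF8 on day 0, 1.94 and 4.58 on day 3, and 2.98 and 6.03 on day 9.

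**Figure D2:**
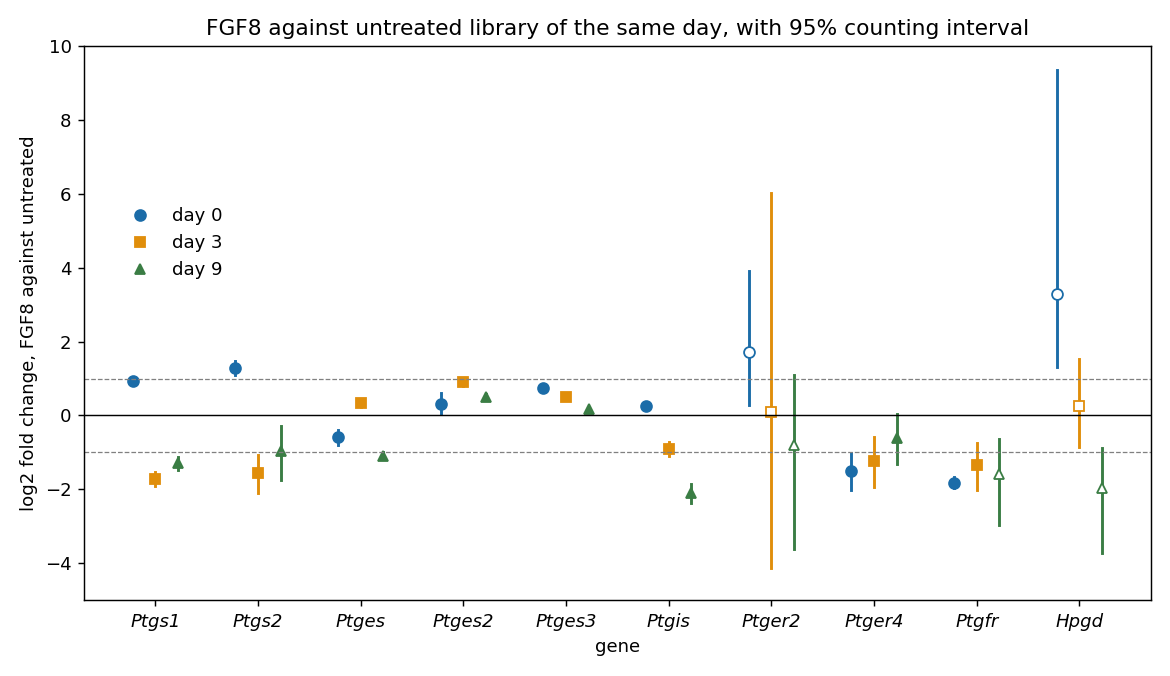
Log2 fold change of the FGF8 library against the untreated library of the same day for the 10 genes, with day 0 as circles, day 3 as squares and day 9 as triangles, bars giving the 95% counting interval and dashed lines a 2-fold difference. Open symbols have a pair mean under 20 normalized counts. Ptgs1 and Ptgs2 lie above 0 on day 0 (0.94 and 1.29) and below it on both later days, and Ptgfr lies below -1 on all 3 days.

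The receptor genes Ptger4 and Ptgfr had lower values with FGF8 on all 3 days. Ptgfr, the receptor for prostaglandin F2 alpha (chromosome 3, 151502139 to 151543267), had 2177 normalized counts untreated and 617.1 with FGF8 on day 0, 67.5 and 26.0 on day 3, and 24.1 and 7.3 on day 9. The untreated library was the higher of each pair, and the fall with time was larger than the difference between the arms. The log2 differences were -1.82 (-1.97 to -1.67), -1.34 (-2.02 to -0.74) and -1.60 (-2.97 to -0.63), the last on 34 and 9 raw counts and a pair mean under 20.

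In the model with 1 FGF8 effect shared by the 3 days, Ptgfr was the 1 member called lower (log2 -1.68, SE 0.19, edgeR adjusted p = 0.04481, lower on 3 of 3 days), against 1.08% of all 13868 genes called lower. The call was lost without the day 3 libraries (adjusted p = 0.1947), without the day 9 libraries (0.2869) and without day in the model (0.9998), and its adjusted p over 7 alternatives ran from 1.67e-06 to 0.9998. No member was called higher (0.0144% of all genes were), with 2 higher at an unadjusted p under 0.05 and 0 with DESeq2. Those 2 were Ptges2 (log2 0.55, adjusted p = 0.141) and Ptges3 (0.44, adjusted p = 0.1858). For genes that changed direction between days, this model counts the change as error, and Ptgs1 (adjusted p = 0.4773) and Ptgs2 (0.751) were not called.

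Ptger4, a prostaglandin E receptor that raises cAMP (chromosome 15, 5236142 to 5273673), had 174.8 normalized counts untreated and 61.5 with FGF8 on day 0, 58.5 and 24.6 on day 3, and 39.0 and 25.2 on day 9. It was 2.84-fold lower on day 0 (log2 -1.49, -2.02 to -1.01) and 2.38-fold lower on day 3 (log2 -1.22, -1.93 to -0.59), and the day 9 interval took in 0 (log2 -0.61, -1.32 to 0.03). The shared effect was -1.16 with an adjusted p of 0.1428. Ptger2, the other cAMP-raising prostaglandin E receptor (chromosome 14, 45225652 to 45241277), was near the detection limit, with 5.9 normalized counts untreated and 21.8 with FGF8 on day 0 (4 and 17 raw counts) and 1.3 to 5.0 in the 4 later libraries. At day 0 its log2 difference was 1.73 (0.27 to 3.92), and at days 3 and 9 the depth could not show a difference. Exons of opposite-strand genes overlap both, Gm15937 over 15.3% of Ptger4 and Gm17173 over 9.8% of Ptger2.

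Hpgd, which starts the inactivation of prostaglandins (chromosome 8, 56747543 to 56774082), was expressed at few counts throughout. It had 1.5 normalized counts untreated and 23.0 with FGF8 on day 0 (1 and 18 raw counts), 12.7 and 15.4 on day 3, and 22.0 and 4.9 on day 9 (31 and 6 raw counts). The FGF8 library was the higher on day 0 (log2 3.28, 1.31 to 9.35) and the lower on day 9 (-1.97, -3.73 to -0.89), with an interval that took in 0 on day 3 (0.26, -0.86 to 1.52). Its pair mean was under 20 on every day, and the difference between day 0 and the later days was not called (adjusted p = 0.1189).

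With the filter, 8 members could be counted on day 0, 8 on day 3 and 7 on day 9. At day 0, 1 was at least 2-fold higher (Ptgs2) and 2 were at least 2-fold lower (Ptger4 and Ptgfr), against 7.27% and 10.8% of all genes. At day 3, 0 were higher and 4 lower (Ptgs1, Ptgs2, Ptger4 and Ptgfr), against 3.80% and 12.1% of all genes. At day 9, 0 were higher and 3 lower (Ptgs1, Ptges and Ptgis), against 1.12% and 8.74%. The median log2 difference of the members that passed was 0.29, -1.06 and -0.96 on the 3 days, beside 0.05, 0.08 and 0.08 over all genes that passed.

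Over days 3 and 9 alone, with day in the model, 4 members were called lower with FGF8 and 1 higher by edgeR, against 11.6% and 3.96% of 14367 genes. The lower ones were Ptgs1 (log2 -1.53, SE 0.20, adjusted p = 0.002777), Ptgs2 (-1.34, 0.04913), Ptgis (-1.52, 0.01192) and Ptgfr (-1.54, 0.0401), and the higher one was Ptges2 (0.67, 0.0244). Ptges (adjusted p = 0.36), Ptges3 (0.2341), Ptger4 (0.1333) and Hpgd (0.3589) were not called. This fit is the shared-effect model without the day 0 libraries.

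During early differentiation the prostaglandin E synthases rose, while the cyclooxygenases, prostacyclin synthase and 2 receptors fell. From day 0 to day 3, with treatment in the model, 3 of the 9 members tested rose, Ptges (log2 1.71, adjusted p = 0.01845), Ptges2 (2.75, 0.003056) and Ptges3 (1.32, 0.008095), against 26.4% of all genes. Another 5 fell, Ptgfr (log2 -4.75, adjusted p = 0.002383), Ptgs2 (-3.65, 0.0218), Ptgs1 (-3.09, 0.02586), Ptgis (-2.12, 0.03562) and Ptger4 (-1.42, 0.03871), against 19.5% of all genes. Without the day 9 libraries the calls of Ptgs1 (adjusted p = 0.05481) and Ptger4 (0.07991) were lost, and without treatment in the model those of Ptgis (0.09195) and Ptger4 (0.1714). From day 3 to day 9 no member was called by edgeR, against 0.0577% of genes higher and 0.00721% lower, with 1 member, Ptgfr, at an unadjusted p under 0.05 (log2 -1.66, adjusted p = 0.07677). Ptgfr was called with DESeq2 (adjusted p = 0.002134) and without the day 0 libraries (0.02567).

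From day 0 to day 9 each arm can be described by itself, with no test of the difference between arms. Ptgs1 was 3.86-fold lower on day 9 than on day 0 without treatment and 18.1-fold lower with FGF8. For Ptgs2 these were 11.8-fold and 57.3-fold, and for Ptgis 2.76-fold and 14.3-fold. Ptgfr was 90.2-fold lower untreated and 84.3-fold lower with FGF8. Of the genes that rose, Ptges was 3.41-fold higher on day 9 untreated and 2.42-fold higher with FGF8, Ptges2 7.09-fold and 8.01-fold, and Ptges3 2.68-fold and 1.82-fold.

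The order of the members per kilobase also changed, with Ptges3 first in all 6 libraries. In the untreated day 0 library Ptges3 (785.9 normalized counts per kb) was followed by Ptgs1 (668.9), Ptgis (439.8), Ptgfr (321.2), Ptges (139.4), Ptgs2 (92.9), Ptges2 (38.5) and Ptger4 (26.3). With FGF8 on day 0, Ptges (92.1) and Ptgfr (91.0) stood level within counting error. In the untreated day 9 library Ptges3 (2109) was followed by Ptges (475.0), Ptges2 (272.6), Ptgs1 (173.3) and Ptgis (159.2), and with FGF8 on day 9 Ptges3 (2377) by Ptges2 (384.2), Ptges (223.1), Ptgs1 (70.7) and Ptgis (37.0). Ptges2 and Ptges thus stood in opposite order in the 2 day 9 libraries, with no replicate of either. This order depends on the exon lengths used, 4405 bases for Ptges and 6835 for Ptges2.

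Beside the members, 7 further receptor genes were examined, and Ptgir, the prostacyclin receptor, followed the course of the cyclooxygenases. It had 656.6 normalized counts untreated and 1125 with FGF8 on day 0, 220.2 and 91.95 on day 3, and 256.2 and 64.2 on day 9. Its log2 FGF8 effect on day 0 exceeded that at days 3 and 9 by 2.41 (SE 0.40, edgeR adjusted p = 0.01446). The receptor-associated gene Ptgfrn, whose product binds the prostaglandin F receptor, was at least 2-fold lower on day 3 (log2 -1.09) and day 9 (-1.13), and Ptger3, the prostaglandin E receptor that lowers cAMP, on day 9 (105.8 and 52.0, log2 -1.01). Of these 7, 3 passed the filter on day 0 with 0 at least 2-fold higher or lower, and 5 passed on each later day with 0 higher and 2 lower on day 3 and 3 lower on day 9. Of all genes, 3.80% and 1.12% were at least 2-fold higher and 12.1% and 8.74% lower on days 3 and 9. None of the receptor genes was called for a shared FGF8 effect by edgeR (2 lower at an unadjusted p under 0.05), and 1 was called lower with DESeq2. The shares of all genes called lower were 1.08% by edgeR and 8.92% by DESeq2.

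Per kilobase, Ptgfr and Ptgir stood in opposite order in the 2 day 0 libraries. Ptgfr had 321.2 normalized counts per kb untreated and 91.0 with FGF8, where Ptgir had 195.9 and 335.7. By day 9 Ptgfr was at 3.56 and 1.08 and Ptgir at 76.5 and 19.2 per kb. Ptger4 went from 26.3 and 9.24 on day 0 to 5.87 and 3.79 on day 9, Ptger3 from 0.70 and 0.20 to 16.8 and 8.26, and Tbxa2r, the thromboxane receptor, from 6.28 and 0.97 to 16.8 and 9.20. These levels have no replicate and depend on the exon lengths used, and Ptgdr was at 0 counts in all 6 libraries.

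**Figure D3:**
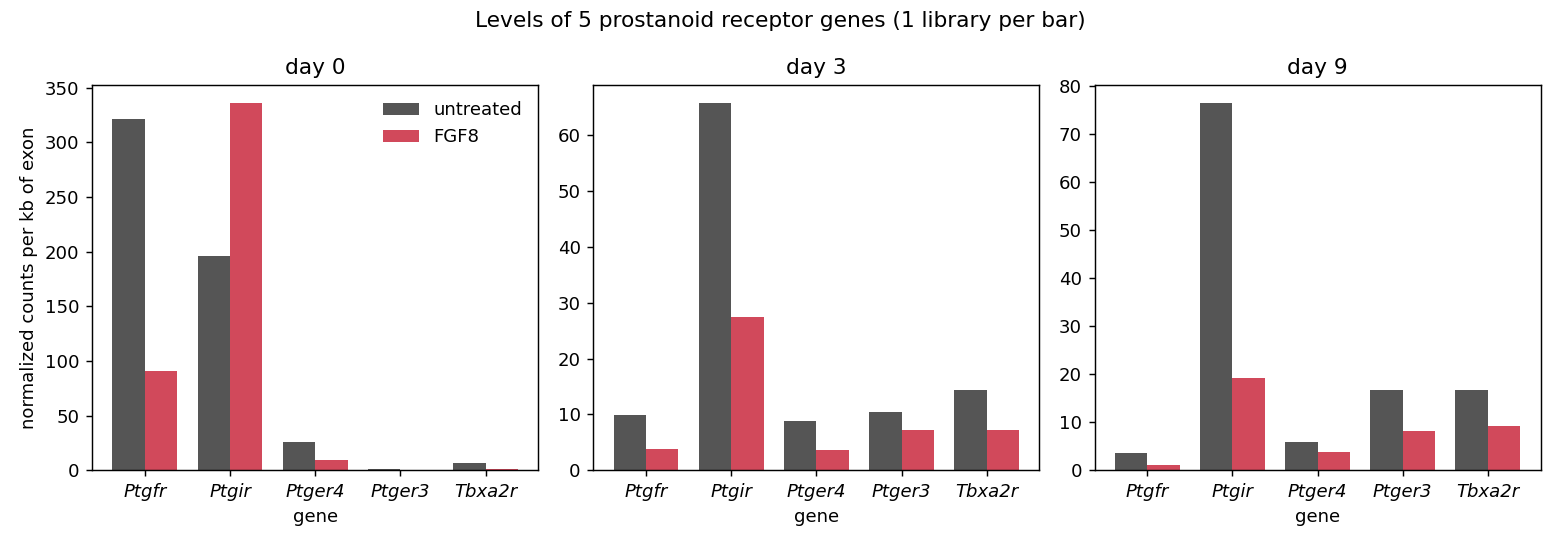
Levels of 5 prostanoid receptor genes in normalized counts per kb of exon on each day (linear axis from 0, a range of its own in each panel), with grey bars untreated, red bars FGF8 and 1 library per bar. On day 0 Ptgfr is at 321.2 untreated and 91.0 with FGF8 and Ptgir at 195.9 and 335.7, while on day 9 the untreated bar is the taller for each of the 5 genes.

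The genes that free arachidonic acid moved in both directions on day 0. Of 14 release genes that passed the filter, 4 were at least 2-fold higher and 3 lower with FGF8 on day 0. On day 3, 1 was higher and 0 lower, and on day 9, 1 was higher and 0 lower. The shares of all genes on the 3 days were 7.27%, 3.80% and 1.12% higher and 10.8%, 12.1% and 8.74% lower. Pla2g12a, a secreted phospholipase, was higher on all 3 days, at 191.0 and 937.1 normalized counts on day 0 (log2 2.29), 1905 and 4148 on day 3 (1.12) and 3086 and 4962 on day 9 (0.68). Pla2g7, which cleaves platelet-activating factor and oxidized phospholipids, had 142.5 and 679.8 on day 0 (log2 2.25) and 79.5 and 209.7 on day 9 (1.39), and Pla2g2e had 7.3 and 35.8 on day 0. Pla2g4c, a cytosolic phospholipase, had 282.0 and 44.8 on day 0 (log2 -2.63), Mgll, which splits monoglycerides, 99.9 and 29.4 (-1.73), and Plaat3, an adipocyte phospholipase, 546.4 and 227.9 (-1.26). No release gene was called for a shared FGF8 effect by edgeR (4 higher and 0 lower at an unadjusted p under 0.05). DESeq2 called 2 higher, where 3.47% of all genes were called higher.

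Pla2g4a, the cytosolic phospholipase that supplies cyclooxygenases, lies 138.1 kb from Ptgs2 on chromosome 1, and it did not reach 2-fold on any day. Its normalized counts were 2863 untreated and 4103 with FGF8 on day 0 (log2 0.52, 0.44 to 0.60), 566.4 and 307.4 on day 3 (-0.88, -1.08 to -0.69), and 315.9 and 232.5 on day 9 (-0.44, -0.66 to -0.22). Its log2 FGF8 effect on day 0 exceeded that at days 3 and 9 by 1.19, which was not called (edgeR adjusted p = 0.05795).

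Among the other prostanoid synthases, Gstm2, a glutathione transferase with prostaglandin E synthase activity, was lower with FGF8 on all 3 days, at 2979 and 912.8 on day 0 (log2 -1.71), 2545 and 1196 on day 3 (-1.09) and 2213 and 1419 on day 9 (-0.64). Akr1c18, an aldo-keto reductase of prostaglandin F and progesterone metabolism, had 19.1 and 84.5 on day 0 (log2 2.09), and Hpgds, the hematopoietic prostaglandin D synthase, 32.7 and 10.6 on day 9. Of 5, 4 and 5 such genes that passed the filter on the 3 days, 1, 0 and 0 were at least 2-fold higher and 1, 1 and 1 lower. The shares of all genes were 7.27%, 3.80% and 1.12% higher and 10.8%, 12.1% and 8.74% lower. None of these synthases was called for a shared effect by edgeR (1 lower at an unadjusted p under 0.05). DESeq2 called 1 lower, where 8.92% of all genes were called lower.

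Slco2a1, the carrier that takes prostaglandins into cells before Hpgd acts on them, was lower with FGF8 on all 3 days. It had 1410 untreated and 396.9 with FGF8 on day 0, 686.0 and 118.6 on day 3, and 187.4 and 36.6 on day 9, log2 differences of -1.83, -2.52 and -2.33. The shared effect was -2.26 (SE 0.22, edgeR adjusted p = 0.04454), and it was the 1 of 9 transport and breakdown genes called, while DESeq2 called 3 lower. Among all genes, 1.08% were called lower by edgeR and 8.92% by DESeq2. The edgeR call of Slco2a1 was lost without day 3, without day 9 and without day in the model, where 0 genes of all were called lower. Slco3a1, a related carrier, was lower at days 3 and 9 (log2 -1.43 and -2.26), Cbr3, a carbonyl reductase, on day 3 (-1.07), and Slco4a1 was higher on day 3 (44.6 and 306.7, log2 2.76). Of 7, 9 and 9 genes that passed on the 3 days, 0, 1 and 0 were at least 2-fold higher and 1, 3 and 2 lower. All genes had shares of 7.27%, 3.80% and 1.12% higher and 10.8%, 12.1% and 8.74% lower.

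**Figure D4:**
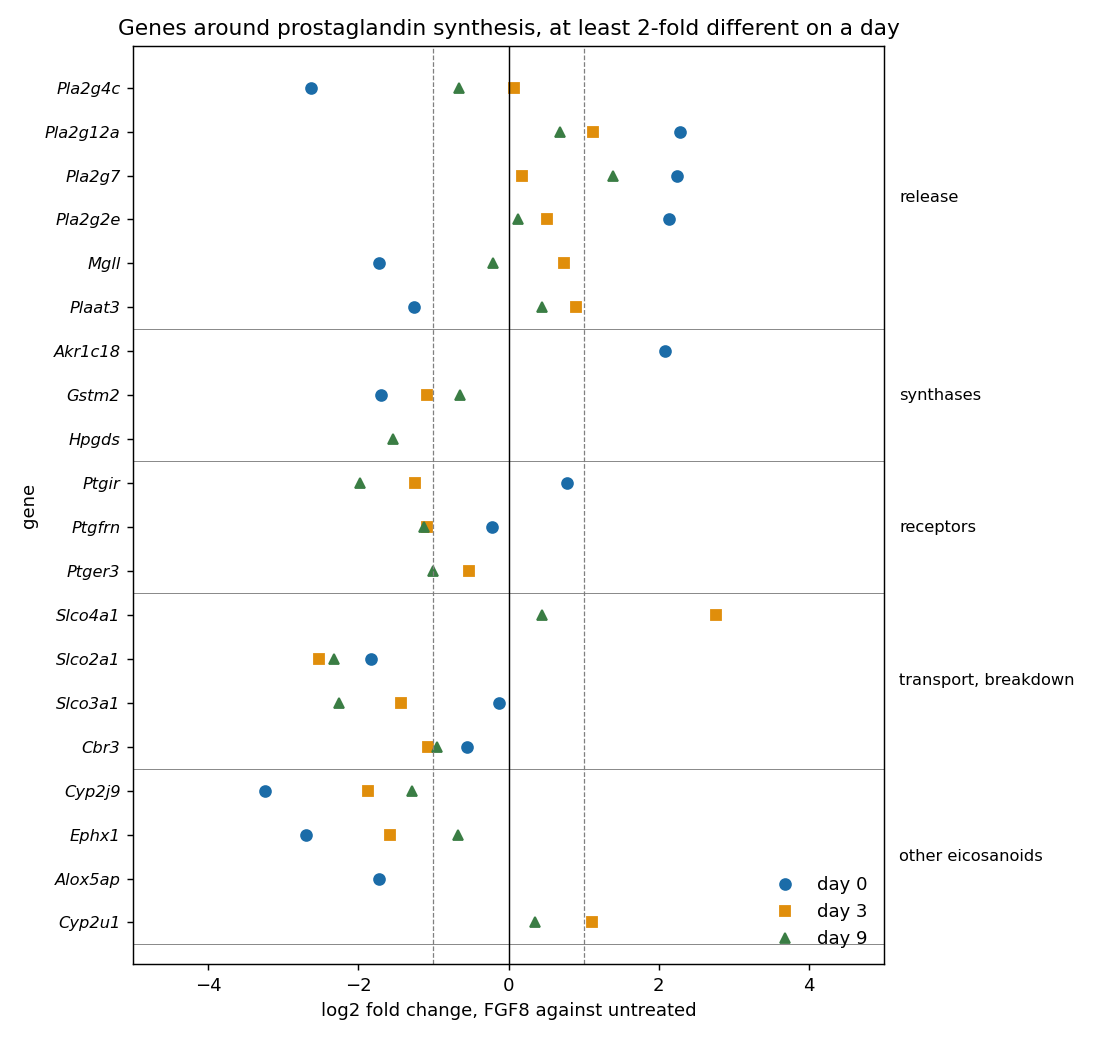
Log2 fold change of the FGF8 library against the untreated library for genes of 5 further lists that were at least 2-fold different on at least 1 day, with points drawn only where the pair mean was at least 20 normalized counts and dashed lines at 2-fold. Slco2a1 lies below -1 on all 3 days (-1.83, -2.52 and -2.33), and Ptgir lies above 0 on day 0 (0.78) and below -1 at days 3 and 9.

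Markers of other cell states moved with the arms. The summed normalized counts of 10 preadipocyte and stromal markers were 325034 to 534807 in the untreated and 118093 to 163516 in the FGF8 libraries. Col1a1 and Col3a1 made up most of each sum (152232 and 326050 in the untreated day 3 library). By gene, 6 of 10 that passed the filter were at least 2-fold lower on day 0, 9 of 9 on day 3 and 9 of 9 on day 9. On day 0, 1 of the 10 was at least 2-fold higher, Lum (835.8 and 1990.7), and Thy1 was also higher (2773.2 and 4427.0). Over all genes, 7.27%, 3.80% and 1.12% were at least 2-fold higher and 10.8%, 12.1% and 8.74% lower on the 3 days. Of 10 brown adipocyte markers, 10 were above 0 on the log2 scale on day 3 (median 0.74, 3 at least 2-fold higher) and 9 on day 9 (median 0.21, 0 at least 2-fold higher or lower), with sums of 8845 and 3842, 386916 and 665999, and 655072 and 756827 untreated and with FGF8 on the 3 days. Of the stromal markers, Lum, Thy1 and Cd34 had a greater log2 FGF8 effect on day 0 than at days 3 and 9. The excess was 4.00, 2.74 and 2.49, beside 2.45 for Ptgs1 and 2.62 for Ptgs2. It was 1.16, 0.11 and 0.03 for Col3a1, Dlk1 and Pdgfrb, and -1.60, -1.01 and -0.998 for Ly6a, Col1a1 and Pdgfra. The part of the stromal and brown adipocyte lists in the lower Ptgs1, Ptgis, Ptgfr, Ptger4 and Slco2a1 values was not tested. Nor was their part in the change of direction of Ptgs1 and Ptgs2. Of 7 endothelial markers, summed at 204 to 1635 untreated and 37 to 77 with FGF8, the defining Pecam1 and Cdh5 were at 12.8 normalized counts or fewer in every library, and Kdr (1288.2 and 7.7) and Tek (326.1 and 42.2) made up most of the day 0 sum. Of 10 macrophage and leukocyte markers, summed at 234 to 313 untreated and 142 to 191 with FGF8, 3 passed the filter on each day, of which 1, 2 and 2 were at least 2-fold lower and 0 higher. Adgre1 was at 0 in all 6 libraries and Ptprc at 0 in 5, while Cd14 had 188.0 and 126.7 on day 0 and 75.2 and 26.0 on day 9, Csf1r 45.5 and 5.1 and then 43.3 and 10.6, and Cd68 39.7 and 35.8 and then 100.1 and 100.8. Of 6 mast cell markers, summed at 38, 97 and 192 untreated and 5, 90 and 428 with FGF8, Kit had 90.9 and 352.0 on day 9, Hdc 59.6 and 32.5 and Cpa3 40.5 and 43.1, and the part of these lists in the results was not tested.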

How the data were processed

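The authors prepared stranded mRNA libraries, trimmed paired-end reads with Trim Galore, aligned them with HISAT2 to GRCm39 and deposited raw gene counts from featureCounts, 1 file per library. Tool versions, annotation, strand setting and the treatment of reads that map to several places are not given in the sources used here. The growth protocol in the labels describes primary white preadipocytes, and the cell type given above follows the titles and the study's methods. Totals were 16403254 to 38551551 counts, and no 2 libraries held identical counts.

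Size factors were the median of ratios over the 6 libraries, and fold changes are differences of log2(normalized count + 1). Intervals of the count ratio were exact binomial at 95%. Models were fitted with edgeR 4.0.16 (R 4.3.3; TMM, filterByExpr by treatment, quasi-likelihood test, adjusted p under 0.05 over 13868 genes), with day and treatment as factors and 2 residual degrees of freedom. The model with a coefficient for FGF8 on day 0 and the fit of days 3 and 9 alone each had 1. Where nothing says that libraries came from separate cultures, p-values may measure technical spread only. Correlations and intervals used Python 3.11.15 with scipy 1.17.1. DESeq2 1.42.0, other size factors, pseudocounts of 0.5 and 5, other filters, fold rules of 1.5 and 4, and leaving out each day were alternatives. Tested on simulated data, the shared-effect model called 189 of 197 genes changed 4-fold and 19 unchanged genes among 13686, and the model of a day 0 difference called 93 of 197 and 24 unchanged among 13701. The simulated spread of each gene was capped, so genes above the cap were simulated as less variable than in the data.

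The members, lists and tests were chosen with earlier results of these data known. Named genes were all members, Ucp1, and of each list at most 6 genes with the largest difference among those at least 2-fold different on a day at a pair mean of at least 20. Pla2g4a, Ptgdr, Tbxa2r and the marker genes were named after their values were seen, and 1 further receptor gene is not reported here by name.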

Additional observations from a re-analysis of the deposited data

Results flagged for a closer look

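Ptgs1 and Ptgs2 had FGF8 effects that differed between the end of pretreatment and differentiation. The log2 effect on day 0 minus that at days 3 and 9 was 2.45 for Ptgs1 (edgeR adjusted p = 0.004115) and 2.62 for Ptgs2 (adjusted p = 0.0153), by a test of the difference itself that was chosen after the data were seen.

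For 3 further members the FGF8 library was the higher of the pair on 1 day and the lower on another, with intervals on opposite sides of 0, and the difference between those 2 days was not tested. The log2 effect of FGF8 on Ptges was greater by 1.42 on day 3 than on day 9. On Ptgis it was greater by 2.36 on day 0 than on day 9, and on Hpgd by 5.25 on day 0 than on day 9, the last resting on 1, 18, 31 and 6 raw counts.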

How the results depend on the processing

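All 150 fold values of the members kept their direction under other normalizations and pseudocounts. Of 178 model values of single members, 163 stayed on the same side of the threshold. No called value changed sign, and changes of sign were not counted for values that were not called. The uncalled shared effect of Hpgd was log2 0.13 in the main model and -0.90 without day 0. Members at least 2-fold higher on day 0 numbered 1, and 3 without the filter, 3 at 1.5-fold and 0 at 4-fold. Those lower on day 0 went from 2 to 0 at 4-fold, and those higher on day 3 from 0 to 1 at 1.5-fold. Those lower on day 3 went from 4 to 1 at a mean of at least 100 and 0 at 4-fold. Those lower on day 9 went from 3 to 5 with size factors within the pair, 5 without the filter, 5 at 1.5-fold and 1 at 4-fold. The members called lower for a shared effect went from 1 to 0 without day in the model, and leaving out 1 day gave 0 to 4 lower (4 without day 0, 0 without day 3 or day 9) and 0 to 1 higher (1 without day 0). The members called lower on day 3 than on day 0 went from 5 to 3 without the day 9 libraries and 3 without treatment in the model, and from day 3 to day 9 from 0 to 1 with DESeq2 and 1 without the day 0 libraries. The cause of these moves was not tested.

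Over all genes, 2 were called higher and 150 lower for a shared effect, against 475 and 1221 with DESeq2, 13 and 406 without the filter, 569 and 1661 without day 0, 1 and 108 with DESeq2 size factors, and 0 and 0 without day 3, without day 9 or without day in the model. From day 0 to day 3, 3656 rose and 2699 fell, against 2287 and 1607 without day 9 and 2663 and 1514 without treatment in the model. From day 3 to day 9, 8 rose and 1 fell (2969 at an unadjusted p under 0.05), against 861 and 475 with DESeq2, 1578 and 1465 without day 0, 199 and 69 without the filter, and 0 and 0 without treatment in the model. For the day 0 difference, 460 more positive and 349 more negative genes became 203 and 164 with DESeq2 size factors and 769 and 643 without the filter.

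The labels give no replicate numbers, and pairing was by day, as a factor in the models. Depth limits Ptger2 and Hpgd, with 1 to 31 raw counts in each library.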

Other observations

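Genes that cAMP and the factor CREB are known to switch on lie downstream of the prostaglandin E and prostacyclin receptors, and a list of 20 was examined. Of 19, 18 and 18 that passed the filter at days 0, 3 and 9, 2, 1 and 0 were at least 2-fold higher with FGF8 and 6, 7 and 3 lower. The shares of all genes were 7.27%, 3.80% and 1.12% higher and 10.8%, 12.1% and 8.74% lower. The medians of the listed genes were -0.54, -0.26 and 0.10 on the log2 scale beside 0.05, 0.08 and 0.08 over all genes. Areg, which encodes the growth factor amphiregulin, had 5.9 normalized counts untreated and 722.0 with FGF8 on day 0 (log2 6.72, 5.58 to 8.82), and 0 to 4.3 in the 4 later libraries. Nr4a2, a nuclear receptor of the immediate early response, had 120.4 and 404.5 on day 0 (log2 1.74). Gem, a small GTPase, was lower with FGF8 on all 3 days (log2 -1.38, -2.58 and -1.83), Dio2, the deiodinase that activates thyroid hormone in brown fat, had 304.1 and 60.2 on day 0, Pde10a, a phosphodiesterase, had 519.3 and 135.5 on day 3, and Nr4a3 had 52.2 and 9.1 on day 3. None of 19 was called for a shared effect by edgeR (1 higher and 3 lower at an unadjusted p under 0.05). DESeq2 called 1 higher and 2 lower, against 3.47% and 8.92% of all genes.

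Of other enzymes of arachidonate metabolism, 3 of 6 that passed the filter were at least 2-fold lower with FGF8 on day 0, against 10.8% of all genes. The highest of the 6 was at log2 0.23. Ephx1, an epoxide hydrolase, had 2525 and 389.2 normalized counts on day 0, 3443 and 1152 on day 3, and 3265 and 2043 on day 9. Cyp2j9, a cytochrome P450, had 129.3 and 12.8, 103.1 and 27.4, and 56.8 and 22.8 on the same days. Alox5ap, which presents arachidonate to 5-lipoxygenase, had 52.9 and 15.4 on day 0, and Cyp2u1, another cytochrome P450, was higher on day 3 (100.5 and 218.3). On each later day 6 passed the filter, with 1 and 0 at least 2-fold higher and 2 and 1 lower. The shares of all genes were 3.80% and 1.12% higher and 12.1% and 8.74% lower. For a shared effect edgeR called 0 of 7 (3 lower at an unadjusted p under 0.05). DESeq2 called 2 lower, where 8.92% of all genes were called lower.

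The genes most highly correlated with Ptgs2 over the 6 libraries were Fbxo30 (Pearson r 0.999), Slc35b3 (0.998) and Ro60 (0.998). They came out of 11380 genes compared on the log2 scale. The correlation compares shape and not size of change. Fbxo30 ran from 861.7 to 1680 normalized counts, where Ptgs2 ran from 20.3 to 1165.0. For Hpgd, which had 1 to 31 raw counts in each library, they were Atp2a2 (0.970), Wdr26 (0.956) and Golph3 (0.924), out of 11381. Wdr26 ran only from 5652 to 6479 normalized counts. The 6 points share days and arms, and these values describe the libraries only.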
